A study of Mus musculus with 9 samples.

Results

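The 9 genes described are effector genes of mast cells and basophils, read in mouse long-term haematopoietic stem cells: the granule proteases Cma1, Mcpt4, Mcpt8 and Cpa3, the tryptases Tpsab1 and Tpsb2, the high-affinity IgE receptor chains Fcer1a and Ms4a2, and the histidine decarboxylase gene Hdc. Each of the 9 genes is read by 1 probe set that carries a single gene symbol. They are 9 of the 22180 genes that could be named in this way. The cells were sorted from bone marrow as Lin-Sca-1+c-kit+CD34-CD135-, and their amplified cDNA was hybridised to 9 arrays, 3 biological replicates in each of 3 genotypes.

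All mice were C57BL/6, and all, the controls included, received 5 doses of pI-pC of 300 µg each at 4 weeks of age, and marrow was taken 12 weeks after that. The first group is WT. The second is MxCre Jak2VF/+, called Jak2VF here, which carries on 1 allele an activating form of Jak2, the kinase behind the erythropoietin, thrombopoietin and interleukin-3 receptors. The third is MxCre Jak2VF/+ EZH2-/-, called Jak2VF EZH2-/- here, which also lacks Ezh2, the methyltransferase of Polycomb repressive complex 2. MxCre is a recombinase under an interferon-responsive promoter that pI-pC switches on in marrow and in other organs. The labels do not say whether the controls carried MxCre. The third group shares the Jak2VF allele with the second, so no group here shows loss of Ezh2 without it.

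Mast cells and basophils arise from stem cells through progenitors that depend on Gata2. Both carry the IgE receptor and store histamine and proteases in granules bound to heparin-like chains. Mast cells hold chymases, tryptases and carboxypeptidase, whereas the Mcpt8 product marks mouse basophils. Their products are textbook markers of mature cells, and some of the messages are also read in early progenitors.

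The array signals have no absolute zero, so 1394 olfactory and vomeronasal receptor genes, which marrow is not expected to express, served as a guide to dim signals. Their 95th percentile lay between 5.90 and 6.74 on the log2 scale, depending on the array. It was 6.63 to 6.74 on WT replicates 1 and 3 and Jak2VF replicate 1. On the others, all Jak2VF EZH2-/- arrays included, it was 5.90 to 6.06. Counts of arrays above it are thus not on equal terms across genotypes. Mcpt8 and Cpa3 exceeded it on 8 of 9 arrays each, missing only WT replicate 3. Cma1 exceeded it on 3 arrays, all Jak2VF EZH2-/-. Fcer1a exceeded it on 2 arrays, Jak2VF replicate 2 and Jak2VF EZH2-/- replicate 3. Mcpt4, Ms4a2, Hdc, Tpsab1 and Tpsb2 stayed below it on all 9 arrays, so their differences are differences among dim signals. The same holds for Cma1 in WT and Jak2VF. For Fcer1a it holds in WT, on Jak2VF replicates 1 and 3 and on Jak2VF EZH2-/- replicates 1 and 2. No exact fold is therefore given for these 7 genes.

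Promoter sequences were available for 7 of the 9 genes, in RefSeq's table of assembly GRCm38.p6. The 250 bases before the start of 5 of them are shown, because these are the genes whose signals differed most between genotypes. All 5 lie on the minus strand and are written 5′ to 3′ with respect to the gene. Capitals mark the GATA motif searched, AGATAA or AGATAG or TGATAA or TGATAG on either strand, the letters that GATA factors bind. The windows are chr14:55944676-55944925 for Cma1, chr14:56062311-56062560 for Mcpt4, chr14:56085198-56085447 for Mcpt8, chr3:20242182-20242431 for Cpa3 and chr1:173227230-173227479 for Fcer1a.
Cma1: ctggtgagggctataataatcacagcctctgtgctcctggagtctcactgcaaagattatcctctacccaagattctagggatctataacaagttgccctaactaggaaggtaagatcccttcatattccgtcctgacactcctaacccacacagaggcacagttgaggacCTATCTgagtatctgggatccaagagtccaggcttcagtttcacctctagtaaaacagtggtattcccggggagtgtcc
Mcpt4: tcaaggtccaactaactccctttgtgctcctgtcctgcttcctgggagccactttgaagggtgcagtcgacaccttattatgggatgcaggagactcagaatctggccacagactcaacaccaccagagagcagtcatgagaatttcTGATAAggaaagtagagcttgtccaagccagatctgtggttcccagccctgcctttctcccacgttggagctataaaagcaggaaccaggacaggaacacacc
Mcpt8: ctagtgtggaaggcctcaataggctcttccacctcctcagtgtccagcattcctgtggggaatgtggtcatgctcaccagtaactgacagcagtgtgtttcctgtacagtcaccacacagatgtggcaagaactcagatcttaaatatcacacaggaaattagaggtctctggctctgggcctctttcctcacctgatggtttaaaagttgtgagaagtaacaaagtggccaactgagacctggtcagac
Cpa3: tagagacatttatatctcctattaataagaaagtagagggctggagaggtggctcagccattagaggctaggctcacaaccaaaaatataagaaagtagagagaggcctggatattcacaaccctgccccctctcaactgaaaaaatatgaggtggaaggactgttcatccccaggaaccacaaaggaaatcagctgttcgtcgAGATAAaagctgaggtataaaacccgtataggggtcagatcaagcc
Fcer1a: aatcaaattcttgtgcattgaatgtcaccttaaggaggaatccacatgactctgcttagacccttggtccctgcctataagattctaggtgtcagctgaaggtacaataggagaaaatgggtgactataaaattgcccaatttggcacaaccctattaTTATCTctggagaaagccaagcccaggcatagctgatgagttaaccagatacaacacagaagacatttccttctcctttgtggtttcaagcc

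A GATA motif was present in 6 of the 7 promoters, all but Mcpt8, against 27.1% of 27018 promoters of the same length. It lay 79 bases before the start in Cma1, 103 in Mcpt4, 46 in Cpa3 and 92 in Fcer1a. Ms4a2, the receptor's beta chain, held 3 matches. The RUNX motif TGTGGT, on either strand, was found in 4 of 7 (14.2% of all promoters), and CACGTG or CACATG on either strand, the E-boxes bound by Mitf, in 1 of 7, Fcer1a (17.6%). The letters TATAAA of the TATA box, on the sense strand only and anywhere in the window, were found in 3 of 7, Mcpt4, Cpa3 and Fcer1a (8.12%). In Mcpt4 and Cpa3 they lay between the GATA motif and the start, in Fcer1a farther from the start than that motif. The 7 windows held 0 to 3 CpG dinucleotides, and 38.1% of all promoters held 3 or fewer (median 6). These matches describe letters in the windows and not binding.

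In Jak2VF cells, 5 of the 9 genes were read above WT on every array without overlap (3.54% of all genes): Mcpt8, Cpa3, Fcer1a, Ms4a2 and Hdc. In Jak2VF EZH2-/- cells, 4 lay above Jak2VF without overlap (4.18% of all genes): Cma1, Mcpt4, Mcpt8 and Tpsb2. Only Cma1 passed the test over all 22180 genes (limma, Benjamini-Hochberg adjusted p under 0.05), with 0.0451% of all genes passing against Jak2VF, and it rose by 1.63 on the log2 scale. Mcpt8 was the 1 gene that stood higher without overlap at both steps. The 9 genes were chosen with earlier results of these data known, so the counts are description and no test. In sorted bulk cells, a larger share of cells with a message and more message per cell cannot be told apart.

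**Figure D1:**
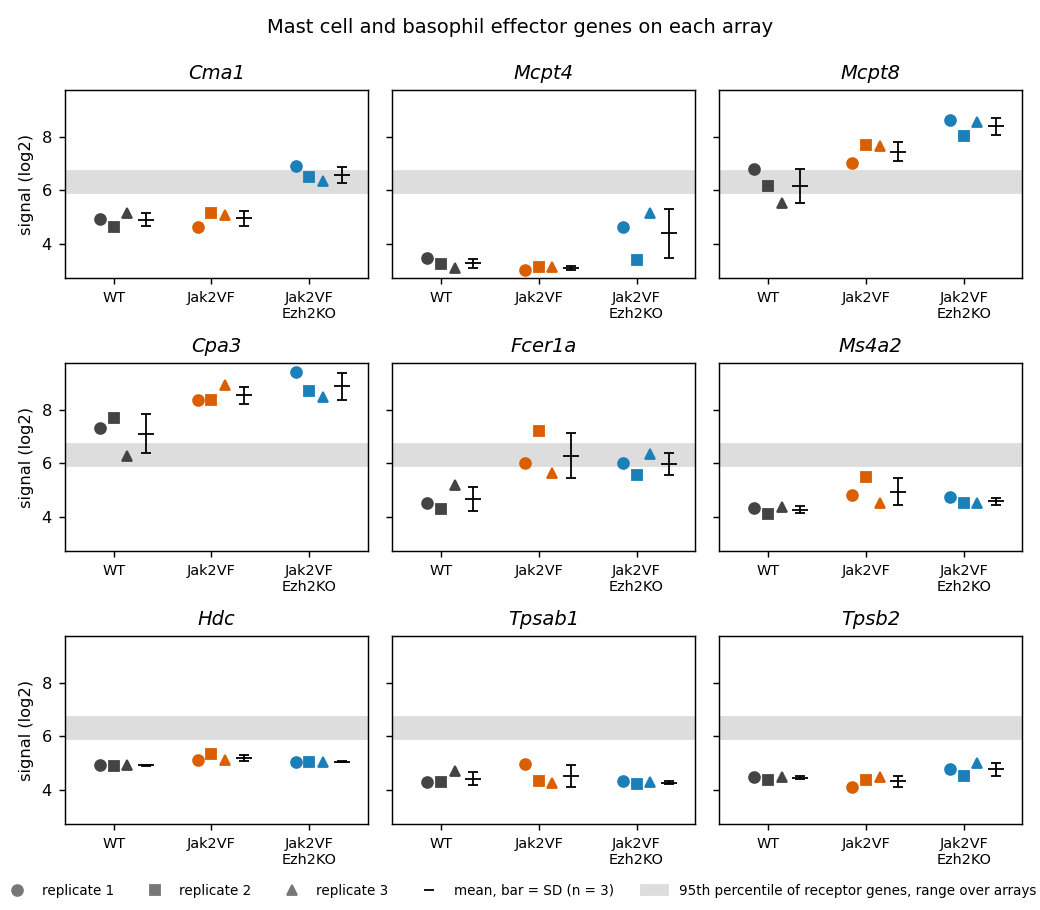
Log2 signal of each of the 9 genes on each array, by genotype; marker shapes give the replicate, the black mark the group mean with its SD (n = 3), and the grey band the range over arrays of the 95th percentile of receptor genes. Cma1 lies above the other 6 arrays in all 3 Jak2VF EZH2-/- arrays, Mcpt8 stands apart in each of the 3 genotypes, and Fcer1a is lowest in WT.

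Cma1 encodes the mouse connective tissue mast cell chymase. Its log2 signal was 4.93, 4.65 and 5.15 on the 3 WT arrays and 4.64, 5.15 and 5.07 on the 3 Jak2VF arrays. It was 6.91, 6.49 and 6.35 on the Jak2VF EZH2-/- arrays. The third group stood clear of both others, which overlapped. The means were 4.91 ± 0.25 in WT, 4.96 ± 0.28 in Jak2VF and 6.58 ± 0.29 in Jak2VF EZH2-/- (SD, n = 3). The difference Jak2VF EZH2-/- minus Jak2VF was 1.63 on the log2 scale (95% interval 1.17 to 2.08, limma adjusted p = 0.0441). Against WT it was 1.67 (1.22 to 2.13, adjusted p = 0.0459). With the receptor-gene level of each array put in place of the dim signals, Cma1 was at least 1.28-fold higher than in Jak2VF and at least 1.12-fold higher than in WT. Jak2VF differed from WT by 0.047 (-0.41 to 0.50, adjusted p = 0.987).

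Both adjusted p values of Cma1 sit close to the threshold. The call against Jak2VF was lost when any array but Jak2VF EZH2-/- replicate 3 was left out (adjusted p 0.0555 to 0.183), and that against WT when any but this array or Jak2VF replicate 1 was left out (0.0627 to 0.224). Under all 18 alternatives that kept Cma1 the difference stayed between 1.39 and 1.74 against Jak2VF and between 1.44 and 1.80 against WT. Replicates 1 and 2 of Jak2VF EZH2-/- carried Y-linked signal (mean of 3 Y-linked genes 6.66 and 6.81, against 3.64 to 4.08 on the other 7 arrays). They also read low in Xist, at 4.86 and 4.56, against 10.84 to 11.31 on those 7. No WT or Jak2VF array did so, and the labels give no sex. For every gene, both comparisons of Jak2VF EZH2-/- therefore mix genotype in part with this signal. On Jak2VF EZH2-/- replicate 3, which lacks the Y-linked signal, Cma1 read 6.35, against at most 5.15 on the 6 WT and Jak2VF arrays. Without replicates 1 and 2, which leaves replicate 3 alone in its group, the difference from Jak2VF was 1.39.

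Mcpt4, the other mast cell chymase of the set, was dim in WT (3.47, 3.27 and 3.12) and in Jak2VF (3.04, 3.13 and 3.16). The Jak2VF EZH2-/- arrays read 4.64, 3.40 and 5.15. Replicates 1 and 3 of that group were far above every other array, and replicate 2 was below WT replicate 1. Jak2VF EZH2-/- exceeded Jak2VF by 1.29 (95% interval 0.50 to 2.08, limma adjusted p = 0.423) without overlap. It exceeded WT by 1.12 with overlap (adjusted p = 0.466), and Jak2VF minus WT was -0.17 (adjusted p = 0.969). Without Jak2VF EZH2-/- replicate 3 the differences were 0.91 and 0.74, and with that array alone in its group the difference from Jak2VF was 2.04 (adjusted p = 0.0539).

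Mcpt8, the basophil granule protease, kept the 3 genotypes apart in the order WT, Jak2VF, Jak2VF EZH2-/-, although no step passed the test. WT arrays read 6.78, 6.16 and 5.52. Jak2VF arrays read 7.03, 7.68 and 7.64, and Jak2VF EZH2-/- arrays 8.61, 8.02 and 8.54. No array of one genotype crossed into another. Jak2VF exceeded WT by 1.30 (2.45-fold, 95% interval 0.60 to 1.99, limma adjusted p = 0.924). Jak2VF EZH2-/- exceeded Jak2VF by 0.94 (1.92-fold, 0.25 to 1.64, adjusted p = 0.550) and WT by 2.24 (4.72-fold, 1.54 to 2.94, adjusted p = 0.081). The last passed in 3 of 19 alternatives, with an intensity trend, with array weights and with dim genes left out (adjusted p 0.0282 to 0.577 over the 19).

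Cpa3, the carboxypeptidase stored with the chymases and an early message of the mast cell and basophil lineage, was higher in both mutant genotypes than in WT. WT arrays read 7.31, 7.71 and 6.29, Jak2VF arrays 8.36, 8.36 and 8.91, and Jak2VF EZH2-/- arrays 9.42, 8.71 and 8.47. Both mutant groups lay wholly above WT, and they overlapped each other. Jak2VF exceeded WT by 1.44 (2.71-fold, 95% interval 0.63 to 2.24, limma adjusted p = 0.924). Jak2VF EZH2-/- exceeded WT by 1.77 (3.40-fold, 0.96 to 2.57, adjusted p = 0.248). The step between the mutants was 0.33 (-0.48 to 1.13, adjusted p = 0.892), and 0.052 without Jak2VF EZH2-/- replicate 1.

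The 2 tryptases stayed dim. Tpsb2, the gene of a tryptase that mast cells release, read 4.50, 4.39 and 4.48 on the WT arrays, 4.11, 4.37 and 4.50 on the Jak2VF arrays, and 4.77, 4.54 and 5.01 on the Jak2VF EZH2-/- arrays. The last group lay narrowly above both others. Jak2VF EZH2-/- exceeded Jak2VF by 0.45 (95% interval 0.10 to 0.80, limma adjusted p = 0.586), and by 0.33 without its replicate 3. Tpsab1 ranged from 4.22 to 4.98 over the 9 arrays with all groups overlapping, and its differences were 0.091, -0.24 and -0.15 in the order Jak2VF minus WT, Jak2VF EZH2-/- minus Jak2VF and Jak2VF EZH2-/- minus WT. The RefSeq annotation of GRCm38.p6 lists Tpsab1 as a transcribed pseudogene in this reference. Tryptase genes are near copies of one another, and how far each probe set separates them was not tested.

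**Figure D2:**
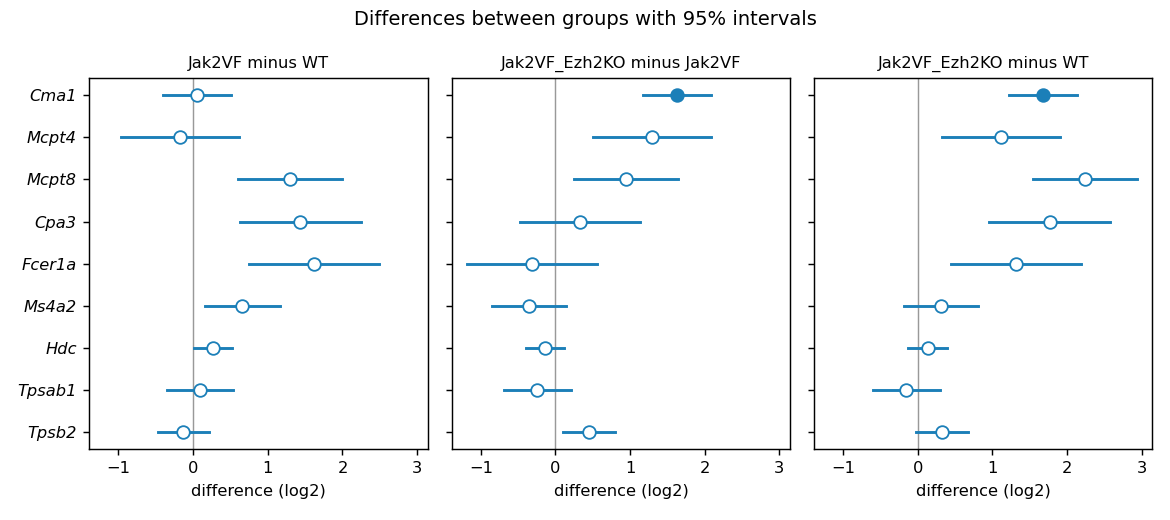
Difference between genotypes on the log2 scale for each of the 9 genes, with its 95% interval from limma, in 3 comparisons; filled points have an adjusted p under 0.05. Cma1 alone is filled, at 1.63 against Jak2VF and 1.67 against WT, while Mcpt8, Cpa3 and Fcer1a stand to the right of 0 in the left and right panels with open points.

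Fcer1a, the chain of the IgE receptor that holds IgE, was lowest in WT (4.51, 4.32 and 5.18). Jak2VF arrays read 6.00, 7.22 and 5.66, and Jak2VF EZH2-/- arrays 6.02, 5.57 and 6.36. Both mutant groups were above every WT array and overlapped each other. Jak2VF exceeded WT by 1.62 (95% interval 0.75 to 2.49, limma adjusted p = 0.924), and by 1.16 without Jak2VF replicate 2. Jak2VF EZH2-/- exceeded WT by 1.31 (0.44 to 2.18, adjusted p = 0.457). Jak2VF EZH2-/- minus Jak2VF was -0.31 (-1.18 to 0.56, adjusted p = 0.909), and 0.15 without Jak2VF replicate 2.

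Ms4a2, the beta chain that amplifies the receptor's signal, read 4.34, 4.14 and 4.37 for WT, 4.82, 5.49 and 4.52 for Jak2VF, and 4.75, 4.52 and 4.52 for Jak2VF EZH2-/-. Jak2VF exceeded WT by 0.66 (95% interval 0.17 to 1.16, limma adjusted p = 0.924), and by 0.39 without Jak2VF replicate 2. Hdc, which makes histamine from histidine, read 4.93, 4.89 and 4.95 for WT, 5.11, 5.34 and 5.13 for Jak2VF, and 5.06, 5.04 and 5.06 in Jak2VF EZH2-/-. Its groups did not overlap, and the steps were small: 0.27 for Jak2VF minus WT (adjusted p = 0.924) and -0.14 for Jak2VF EZH2-/- minus Jak2VF (adjusted p = 0.856), the latter -0.064 without Jak2VF replicate 2. Fcer1a, Ms4a2 and Hdc were all highest on Jak2VF replicate 2.

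Counted together, 0 of the 9 genes passed in Jak2VF minus WT, where 0% of all genes did. An unadjusted p under 0.05 was reached by 5 of the 9, Mcpt8, Cpa3, Fcer1a, Ms4a2 and Hdc, against 2.85% of all genes with a positive difference at that p. The same 5 did not overlap, against 3.54% of all genes. These counts are no test, since the 9 genes were chosen with earlier results of these data known. Nor are the 5 separate: Fcer1a, Ms4a2 and Hdc correlated with one another at 0.844 to 0.918 within groups. Ms4a2 and Hdc were below the receptor-gene level on all 9 arrays. The median difference was 0.27 over the 9 genes and 0.027 over all genes. In Jak2VF EZH2-/- minus Jak2VF, 1 of 9 passed (0.0451% of all genes, 10 in number), 4 were higher without overlap (4.18% of all genes) and 1, Hdc, was lower (6.94%). The medians were 0.33 over the 9 genes and -0.040 over all, the former being 0.052 without Jak2VF EZH2-/- replicate 1 and 0.51 without Jak2VF replicate 3. In Jak2VF EZH2-/- minus WT, 1 of 9 passed (0.0225% of all genes, 5 in number), and 7 were higher without overlap, all but Mcpt4 and Tpsab1 (6.28% of all genes). The medians there were 1.12 over the 9 genes, or 0.74 without Jak2VF EZH2-/- replicate 3, and -0.018 over all. The 3 comparisons share arrays in pairs, so they are not independent.

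Other genes of the same pathways were listed by role. Over these 6 lists, 0 of 88 genes measured passed in any of the 3 comparisons. Of all genes, 0% passed in Jak2VF minus WT, 0.0451% in Jak2VF EZH2-/- minus Jak2VF and 0.0225% in Jak2VF EZH2-/- minus WT. Among 10 other granule proteases the median differences were 0.092, 0.13 and 0.19, in the order Jak2VF minus WT, Jak2VF EZH2-/- minus Jak2VF and Jak2VF EZH2-/- minus WT. Gzmb, the granzyme of cytotoxic cells that mast cells can also make, was above WT by 1.43 in Jak2VF EZH2-/- (limma adjusted p = 0.248) without overlap. Prss34, a basophil protease, read 6.05, 6.20 and 6.00 for WT, 6.18, 7.17 and 6.70 for Jak2VF, and 6.63, 6.58 and 8.07 in Jak2VF EZH2-/-, with Jak2VF EZH2-/- above WT by 1.01 (adjusted p = 0.531). Ctsg, a neutrophil and mast cell protease, followed another order, 1.45 above WT in Jak2VF (adjusted p = 0.924) and 1.32 below Jak2VF in Jak2VF EZH2-/- (adjusted p = 0.606).

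Among 16 measured genes of IgE receptor signalling, the medians were 0.25, -0.18 and 0.069. Fcer1g, the signalling chain shared by the IgE receptor and other Fc receptors, read 8.08, 8.10 and 7.60 for WT, 7.65, 7.78 and 8.07 for Jak2VF, and 8.32, 8.53 and 8.63 in Jak2VF EZH2-/-. Its order differed from that of Fcer1a: the third group lay above both others, by 0.66 against Jak2VF (limma adjusted p = 0.416), and WT and Jak2VF overlapped. Syk, the kinase recruited by that chain, was 0.59 above WT in Jak2VF (adjusted p = 0.924) and 0.52 lower in Jak2VF EZH2-/- than in Jak2VF (adjusted p = 0.641), without overlap in either.

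Among 18 measured genes of mediator synthesis and storage, 6 lay below Jak2VF without overlap in Jak2VF EZH2-/- (6.94% of all genes), and none above (4.18%), and the medians were 0.21, -0.12 and 0.012. Slc18a2, the vesicular transporter that loads histamine, was 0.40 above WT in Jak2VF and 0.68 lower than that in Jak2VF EZH2-/- (limma adjusted p = 0.377). Vamp8, a membrane protein of granule release, was 0.51 below Jak2VF in Jak2VF EZH2-/- (adjusted p = 0.512). Among 17 surface receptors, 6 lay above WT in Jak2VF without overlap (3.54% of all genes), and the medians were 0.21, -0.078 and 0.017. Csf2rb2, the mouse-specific interleukin-3 receptor beta chain, read 6.02, 6.57 and 5.57 for WT, 7.13, 7.03 and 7.996 for Jak2VF and 5.51, 6.51 and 5.76 in Jak2VF EZH2-/-. Only the Jak2VF arrays were high, by 1.33 over WT (adjusted p = 0.924). Il18r1, a chain of the interleukin-18 receptor, was highest in the other mutant genotype, at 5.83, 5.98 and 6.03 for WT, 6.03, 6.09 and 6.54 for Jak2VF and 6.83, 7.30 and 7.21 for Jak2VF EZH2-/-. No group overlapped another, and Jak2VF EZH2-/- exceeded WT by 1.17 (adjusted p = 0.106). Kit, the receptor of the mast cell growth factor and part of the sort gate, differed by at most 0.078 in size.

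Among 18 transcription factors, 16 had positive differences in Jak2VF minus WT, where the median over all genes was 0.027. The share of positive differences over all genes was not counted. Of the 16, 3 did not overlap WT (3.54% of all genes). The medians of the 18 were 0.23, 0.012 and 0.13. Gata2, needed for mast cells and for stem cells, was 0.47 above WT in Jak2VF (limma adjusted p = 0.924), and Irf8, a factor of monocyte and basophil progenitors, 0.81 (adjusted p = 0.924). Irf8 was 0.98 above WT in Jak2VF EZH2-/- (adjusted p = 0.253). Stat5b, which carries Jak2 signals, was 0.76 lower in Jak2VF EZH2-/- than in Jak2VF (adjusted p = 0.503). Among 9 cytokines and chemokines the medians were 0.058, -0.048 and 0.074. Ccl3, a chemokine that mast cells release, was 1.21 above WT in Jak2VF EZH2-/- (adjusted p = 0.466).

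Markers of other blood cells moved on some of the same arrays. Jak2VF EZH2-/- replicate 3, highest of all arrays in Mcpt4 and Tpsb2, was also highest in Prg2, the eosinophil major basic protein that basophils and mast cells share (8.69, against 7.02 and 5.60 on replicates 1 and 2). The same array was highest in the neutrophil genes S100a8 (9.91 against 7.75 and 6.74), S100a9 (8.50 against 7.33 and 6.38) and Camp (6.05 against 3.74 and 3.72). Of the other neutrophil markers listed, Prtn3, Ngp and Lcn2 were also highest on this array. Mpo, Elane, Ltf and Mmp8 were instead highest on a Jak2VF array. Mpo read 10.3 on Jak2VF replicate 2, against 9.235 on Jak2VF EZH2-/- replicate 3. Over 10 neutrophil markers, the array means were 5.44 to 5.88 in WT, 5.57 to 5.98 in Jak2VF and 5.79 to 6.93 in Jak2VF EZH2-/-, and 4 markers were below the receptor-gene level on all arrays. Over 7 measured eosinophil markers they were 4.48 to 4.62, 4.68 to 4.79 and 4.56 to 5.17, with 5 below that level. Over 9 T and NK cell markers they were 5.71 to 5.92, 5.62 to 5.83 and 6.21 to 6.67, with 4 below it. In Jak2VF EZH2-/-, 4 of these 9 lay above Jak2VF without overlap (4.18% of all genes) and 1, Nkg7, below (6.94%). Il7r, Ccl5 and Klrd1 were above Jak2VF by 1.95, 1.77 and 1.69 (limma adjusted p = 0.221, 0.244 and 0.0934), and also above every WT array. The part of such cells in the signals of the 9 genes was not tested. Without Jak2VF EZH2-/- replicate 3, the differences from Jak2VF were 1.74 for Cma1, 0.87 for Mcpt8, 0.91 for Mcpt4 and 0.33 for Tpsb2. With it they were 1.63, 0.94, 1.29 and 0.45.

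**Figure D3:**
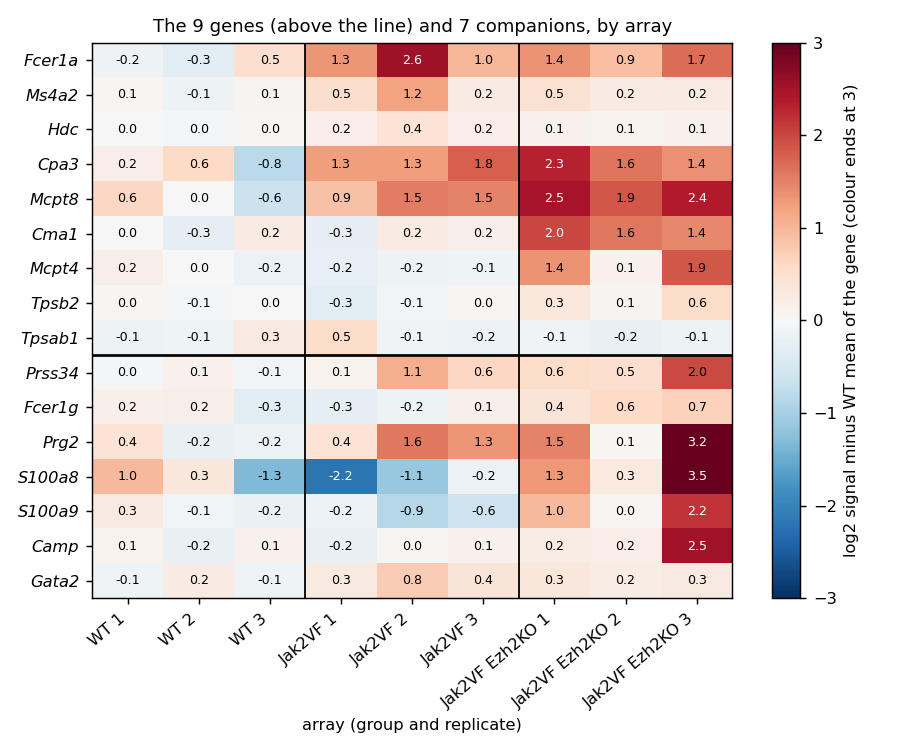
Log2 signal of each gene on each array minus the WT mean of that gene, for the 9 genes (above the line) and 7 companions picked after their values were seen; red is higher and blue lower, with colours ending at 3. Jak2VF replicate 2 is the highest array for Fcer1a, Ms4a2 and Hdc, and Jak2VF EZH2-/- replicate 3 for Mcpt4, Tpsb2, Prss34, Prg2, S100a8, S100a9 and Camp.

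Of all the lists of other cells and of stem cells, 1 gene passed, Itga2b, in Jak2VF EZH2-/- minus Jak2VF (0.0451% of all genes). Over 6 megakaryocyte markers the array means were 7.31 to 7.63 in WT, 7.56 to 8.24 in Jak2VF and 7.02 to 7.39 in Jak2VF EZH2-/-, where Itga2b, the platelet integrin, fell by 1.45 against Jak2VF (limma adjusted p = 0.0441). Over 6 erythroid markers they were 7.87 to 8.62, 7.81 to 8.74 and 8.55 to 8.79. Over 10 stem cell markers they were 7.74 to 7.75, 7.46 to 7.53 and 7.49 to 7.69, with none below the receptor-gene level on all arrays. In Jak2VF, 4 of the 10 lay below WT without overlap, a share that was not counted over all genes. Mecom and Mllt3, among these 4, were lower by 0.705 and 0.56 (limma adjusted p = 0.863 and 0.868). Procr was 0.64 below WT in Jak2VF (adjusted p = 0.868) and 0.90 above Jak2VF in Jak2VF EZH2-/- (adjusted p = 0.0941), without overlap in either. In Jak2VF minus WT, 2 of the 10 had positive differences, where the median over all genes was 0.027 and the share of positive differences was not counted. Over 8 further surface genes of progenitors and mature blood cells (Cd34, Flt3, Ptprc, Cd48, Cd3e, Ms4a1, Itgam and Ly6g), of which the gate names the products of the first pair, the array means were 6.70 to 6.97, 6.96 to 7.17 and 6.85 to 6.96. Cd48 was 1.20 above WT in Jak2VF (adjusted p = 0.924), the 1 gene of the 8 above without overlap (3.54% of all genes). Cd34 itself, a protein the gate leaves out, read 9.91 to 10.68. It was 0.55 lower in Jak2VF EZH2-/- than in Jak2VF (adjusted p = 0.413) without overlap. Flt3, the gene of CD135, read 6.91 to 8.03, and Jak2 7.66 to 8.52. Ezh2 was 0.59 lower in Jak2VF EZH2-/- than in Jak2VF (adjusted p = 0.411) without overlap, at 8.08 to 8.47 against 8.78 to 9.09. The labels do not place this probe set inside or outside the deletion, so it does not check the genotype. Array medians over all genes were 5.51 to 5.68, and arrays correlated at 0.898 to 0.968 over genes.

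Cma1, Mcpt4 and Mcpt8 lie in 1 cluster of serine protease genes, and Tpsab1 and Tpsb2 in another. Between Sdr39u1 and Gzmb, the measured genes of the chymase cluster are in order Cma1, Mcpt-ps1, Cma2, Gm5801, Mcpt1, Mcpt2, Mcpt9, Mcpt4, Mcpt8, Ctsg, Gzmd, Gzmg, Gzmn, Gzmf and Gzmc. Of the 14 genes of this stretch that are not effector genes described here, 0 passed in any comparison (0% to 0.0451% of all genes). In Jak2VF EZH2-/- minus Jak2VF, 1 of them, Mcpt1, lay above without overlap (4.18% of all genes) and 2, Ctsg and Gzmn, below (6.94%), and their median was 0.085. Cma2 and the pseudogene Mcpt-ps1, the genes nearest to Cma1 on that side, differed by 0.083 and 0.39 (adjusted p = 0.971 and 0.738), and Sdr39u1, on the other side, by -0.81 (adjusted p = 0.539). Mcpt9, just before Mcpt4, differed by 0.074. Mcpt4 and Mcpt8 are adjacent, and in Jak2VF minus WT they differed from each other in sign, at -0.17 and 1.30.

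**Figure D4:**
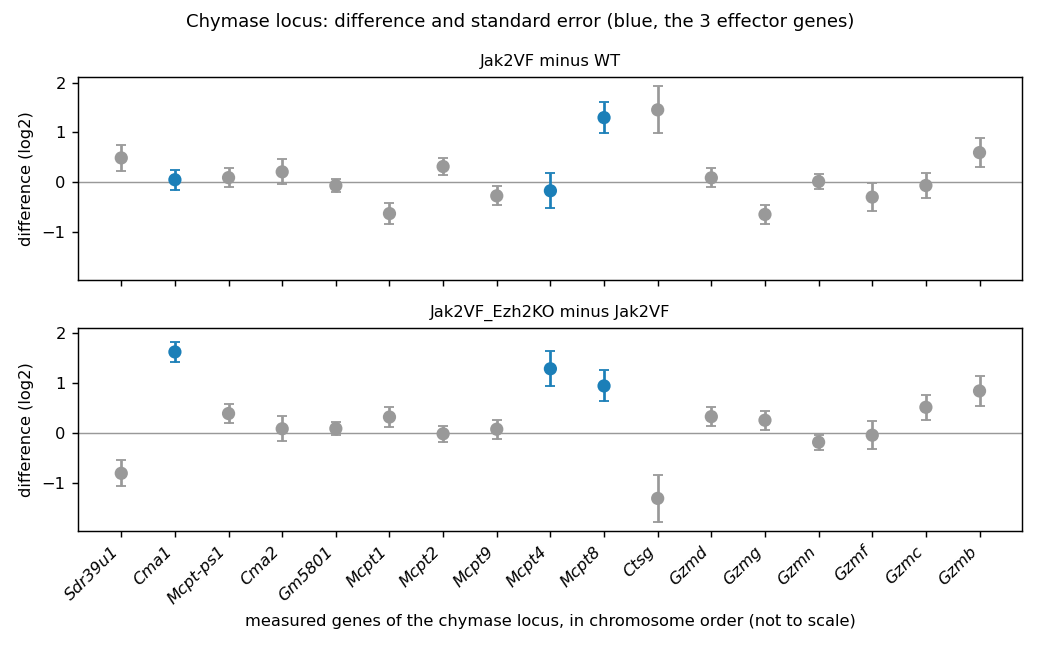
Difference (log2, with its standard error from limma) of each measured gene of the chymase cluster in chromosome order, for Jak2VF minus WT (top) and Jak2VF EZH2-/- minus Jak2VF (bottom); blue marks Cma1, Mcpt4 and Mcpt8. In the bottom panel the 3 blue points lie between 0.94 and 1.63, the highest of the row, and Ctsg at -1.32 is the lowest.

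In the tryptase cluster, 0 of the 4 neighbours measured passed in any comparison (0% to 0.0451% of all genes), and their medians were 0.18, 0.049 and 0.099. Prss34, described above, is one of them.

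For each gene, the 3 others most like it over the 9 arrays were named by Pearson's r, among genes at or above the median signal. The values describe 9 arrays of 3 genotypes and were the highest among all genes searched. Spearman's rho over the same arrays ran from 0.458 to 0.95 for the 27 pairs. Cma1 was closest to Cenpv (0.959), Epb41l4aos (0.942) and Mpped2 (0.938), each of which lay above both other genotypes in Jak2VF EZH2-/-. Cenpv, a centromere protein, exceeded Jak2VF there by 1.05 (limma adjusted p = 0.212). Mcpt4 was closest to S100a9 (0.943), the chemokine Xcl1 (0.932) and Pigz (0.930, with a Spearman's rho of 0.458). Mcpt8 was closest to Zbp1 (0.947), a sensor of nucleic acids that interferon induces, Ndfip1 (0.942) and Sntb2 (0.937).

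Cpa3 was closest to Vdac3 (0.970), a mitochondrial channel, Wac (0.961) and Insl6 (0.959). Insl6 was 1.31 above WT in Jak2VF (limma adjusted p = 0.861) and 1.57 in Jak2VF EZH2-/- (adjusted p = 0.159). Fcer1a was closest to Guk1 (0.936), Snhg4 (0.923) and Parm1 (0.914), Ms4a2 to Zfp746 (0.918), Pomt2 (0.915) and Hyal3 (0.894), and Hdc to Tgfbr3 (0.967), Ctdsp1 (0.914) and Clca3a1 (0.910). Clca3a1 was 1.35 above WT in Jak2VF (adjusted p = 0.924) and 0.66 lower in Jak2VF EZH2-/- than in Jak2VF (adjusted p = 0.742), without overlap in either. Tpsab1 was closest to Zxdb (0.958), Gas7 (0.948) and Krtap10-4 (0.936), with Spearman's rho of 0.467, 0.783 and 0.469, and Tpsb2 to Chad (0.963), Cops9 (0.932) and Insig1 (0.932).

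Exact repeats of a value were common in the deposited signals: 46.5% of all genes and 5 of the 9 read exactly the same on 2 or more arrays. Ms4a2 had 1 value on 3 arrays, and Cpa3 1 value on Jak2VF replicates 1 and 2. The SDs of such genes include these repeats.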

How the data were processed

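Stem cells of 9 mouse samples were profiled on gene arrays. The authors deposited log2 values for 41345 probe sets, made with Partek 6.6 per the submitters' processing notes; the background correction, summarisation and genome build are not stated by the labels. Of these, 23521 carried 1 gene symbol, 1814 several and 16010 none; for each of 22180 symbols the probe set with the highest mean over 9 arrays was kept. All arrays entered 1 limma 3.58.1 fit (R 4.3.3) with a mean per group, 3 contrasts and Benjamini-Hochberg adjustment over all genes. Intervals are 95%. The script was tested on simulated data. Deviations from the group means correlated at -0.231 to 0.484 between same-numbered arrays (r over 0.1 in 2 of 9 pairs). Between differently numbered arrays of other groups they correlated at -0.502 to 0.333 (5 of 18 pairs). These values do not settle whether the numbers pair the arrays. The labels do not say what the numbers share, so the fit has no replicate block.

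The labels call replicates biological; the number of mice behind each is not given. Only 3 arrays a group limit the precision. Genes and lists were chosen with earlier results of these data known. Named genes are the 9, the 3 most alike genes, neighbours in both clusters, and Ezh2, Jak2, Kit, Cd34 and Flt3. From each list, the genes that passed and some of those with the 2 smallest p values in a comparison are named. The companions of the array plot, Prg2 included, and the neutrophil genes, Camp included, were named after their values were seen. Alternatives changed the variance model, normalization, filter, probe set rule, groups fitted, weights, threshold and arrays. Tables of RefSeq assembly GRCm38.p6 gave gene order and promoters.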

Additional observations from a re-analysis of the deposited data

How the results depend on the processing

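With 3 arrays a group, small differences were beyond the precision. Under the 20 alternatives run, the count of genes passing in Jak2VF minus WT stayed at 0. In Jak2VF EZH2-/- minus Jak2VF, where 10 genes passed, it was 0 without variance moderation, 4 with median centring, 19 with genes below the median signal left out, 0 with only the 2 groups compared, 0 with the 2 Y-positive arrays left out and 23 at an adjusted p under 0.1; leaving out 1 array gave 0 to 17. In Jak2VF EZH2-/- minus WT, where 5 passed, it was 10 with an intensity trend, 0 without moderation, 3 with median centring, 0 with 2 groups, 14 with array weights, 3 with every probe set, 0 without the Y-positive arrays and 13 at 0.1; leaving out 1 array gave 0 to 14. With the replicate number as a block, 0 genes passed in either. The labels do not say whether the numbers pair the arrays.

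Of the 9 genes, 1 passed in each of these comparisons; against Jak2VF this became 0 without moderation, with median centring, with the filter (which removes Cma1), with 2 groups, with the block and without the Y-positive arrays, and 0 to 1 leaving out 1 array. Against WT it became 2 with the trend, array weights or 0.1, and 0 without moderation, with centring, 2 groups, every probe set, the block or the Y-positive arrays left out, and 0 to 1 leaving out 1 array. Signs turned in small differences that had not passed: Cma1 in Jak2VF minus WT with array weights (-0.017) or 1 array left out (-0.083 to 0.21), Tpsab1 there (-0.14 to 0.22), and, in Jak2VF EZH2-/- minus Jak2VF, Fcer1a with 1 array left out (-0.63 to 0.15) or without the Y-positive arrays (0.062) and Cpa3 without them (-0.070). Without the Y-positive arrays, the lone Jak2VF EZH2-/- array was assumed to vary like the other groups. Where not given, the cause was not tested.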
